A study of Homo sapiens with 4 samples.

Results

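The 10 genes described here write or erase methylation on lysine 36 (H3K36) or lysine 27 (H3K27) of histone H3. NSD1, NSD3, SETD2 and ASH1L write H3K36 methylation. EZH2, EZH1, SUZ12 and EED belong to Polycomb repressive complex 2 (PRC2), which writes H3K27 methylation, and KDM6A and KDM6B erase it. They were chosen by name as the enzymes around the NSD2 excess of t(4;14) myeloma. All 10 were listed, each under a single gene identifier, among 22187 genes, and all 10 passed the filter on low counts. RNA was sequenced from 4 cultures of 2 human multiple myeloma lines, KMS18 and KMS28BM (K18 and K28BM in the labels), which are of plasma cell origin and both carry t(4;14). From each line came 1 library of cells in which PKCα, the product of PRKCA, had been knocked down stably (KDPKCa) and 1 library of cells with a luciferase control construct (Luc). The knockdown therefore stands on a background of translocation in every library, and neither line without t(4;14) nor a second culture of any group was part of the design. The comparison asks how the RNA of such cells differs when PKCα is low.

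Methyl groups on H3K36 mark the bodies of transcribed genes. NSD-family enzymes and ASH1L place the lower methylation states, and SETD2, which travels with elongating RNA polymerase II, places the trimethyl state. PRC2 trimethylates H3K27 and holds developmental genes silent, with EZH2 or its paralog EZH1 as the catalytic subunit and SUZ12 and EED as the core that activates it. H3K36 methylation hinders PRC2 on the same histone tail. In t(4;14) myeloma the immunoglobulin locus drives NSD2, H3K36 dimethylation spreads and H3K27 trimethylation is lost over much of the genome. KDM6A (UTX) sits in the KMT2C and KMT2D enhancer complexes and is recurrently lost in myeloma, while KDM6B (JMJD3) is an inducible enzyme.

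The libraries held 37940949 to 39507281 expected counts, and 11100 to 11591 genes reached 1 FPKM (a level per length of the gene and per depth of the library). PRKCA, the target, was at 1.47 FPKM in KMS18 knockdown cells and 7.46 FPKM in KMS18 control cells. In KMS28BM it was at 2.43 FPKM in knockdown cells and 10.86 FPKM in control cells. All 8 plasma cell markers reached 1 FPKM, and their summed level was lower with the knockdown, at 1224 against 1989 FPKM in KMS18 and 1173 against 1972 FPKM in KMS28BM. CD38 went the other way, at 29.17 against 26.39 FPKM in KMS18 and 5.99 against 4.99 FPKM in KMS28BM (knockdown against control). Each other plasma cell marker was lower in both lines. Of 5 T cell markers only CD3E reached 1 FPKM (20.95 against 7.32 FPKM in KMS18 and 3.27 against 1.0 FPKM in KMS28BM, knockdown against control), while CD3D stayed at or below 0.22 FPKM. B cell, myeloid, stromal, erythroid and endothelial markers summed to at most 2.41 FPKM in any library. The part of these shifts in the results below was not tested. With 1 library per line and construct, the lines are the only replication. An edgeR p-value over both lines rests on 1 residual degree of freedom, moderated by a prior of 5.85 drawn from all genes tested. It therefore reflects only in part how alike the 2 lines moved. In a culture, fewer cells that express a gene and less RNA per cell cannot be told apart.

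By level, the 10 genes fell into a high pair, a broad middle and 1 low gene. EZH2 and SUZ12 led, with mean levels over the 4 libraries of 42.6 and 41.95 FPKM and ranges that overlapped (25.8 to 59.1 and 36.9 to 44.7 FPKM). EZH1 followed at 18.1 FPKM, below every SUZ12 value. SETD2 (mean 15.4), ASH1L (12.0), NSD1 (11.5), NSD3 (10.8), EED (8.66) and KDM6A (8.57 FPKM) came next, and each overlapped its neighbour in that order, as EZH1 did with SETD2. KDM6B was lowest at 1.70 to 3.71 FPKM, under every KDM6A value (6.51 to 10.1 FPKM). For comparison, NSD2, the translocated writer, was at 184 FPKM in knockdown and 246 FPKM in control cells of KMS18, and at 112 and 172 FPKM in knockdown and control cells of KMS28BM. NSD2 thus exceeded the sum of NSD1 and NSD3 by 9.82 and 9.51 times in KMS18 (knockdown, control) and by 6.0 and 6.66 times in KMS28BM. In FPKM the narrowest spread was that of EZH1 and ASH1L, whose highest library was 1.11 times the lowest, although EZH1 spanned 53.9 to 77.1 in CPM (counts scaled to library size, with no correction for length). In FPKM SETD2 (2.62 times), EZH2 (2.29), KDM6B (2.18) and NSD3 (2.06) spread most.

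**Figure D1:**
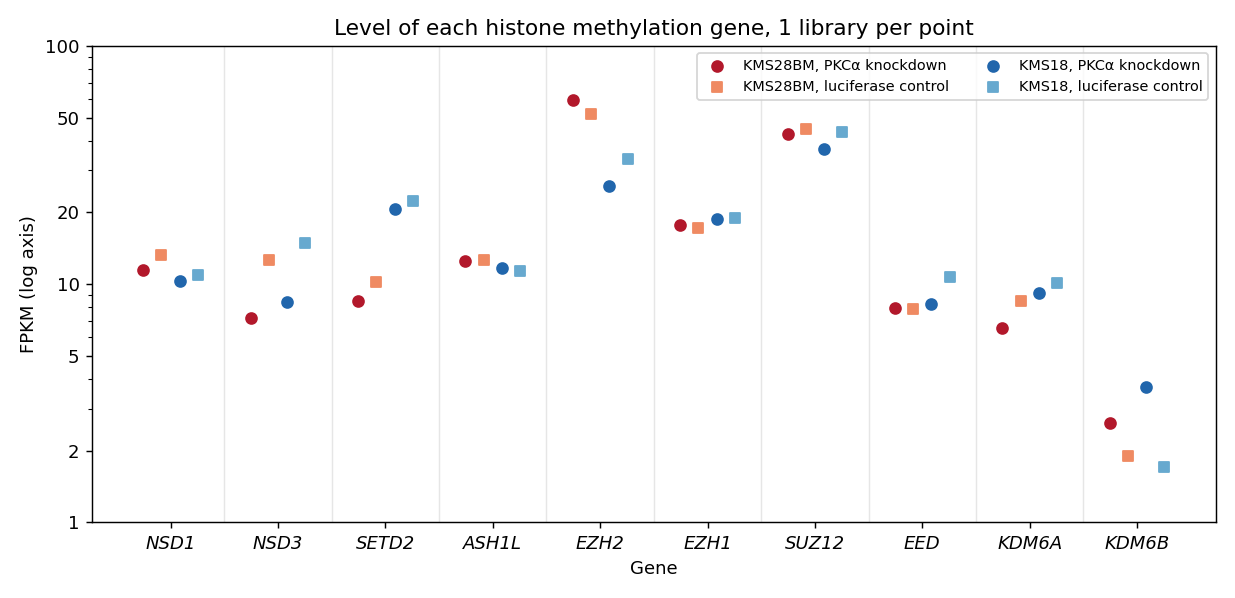
FPKM on a log axis for each of the 10 genes, 1 point per library (circles knockdown, squares control, red KMS28BM, blue KMS18). EZH2 and SUZ12 lie highest and KDM6B lowest, at 1.70 to 3.71 FPKM. NSD3 has both knockdown points (7.23 and 8.40 FPKM) below both control points (12.6 and 14.9 FPKM).

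NSD3 fell with the PKCα knockdown, and it alone of the 10 genes passed the test over both lines. NSD3 (also WHSC1L1; ENSG00000147548, chromosome 8, 38269697 to 38382272, minus strand, GRCh38) encodes an H3K36 methyltransferase and also a short protein that lacks the catalytic SET domain. It was at 8.40 FPKM in knockdown and 14.9 FPKM in control cells of KMS18, and at 7.23 FPKM in knockdown and 12.6 FPKM in control cells of KMS28BM. Both knockdown libraries lay below both controls, at 56.4% and 57.4% of the control level in KMS18 and KMS28BM. Behind these levels stood 1717 expected counts in knockdown and 2539 in control cells of KMS18, and 1334 in knockdown and 2120 in control cells of KMS28BM. The log2 difference in CPM over both lines was -0.68 (SE 0.10, edgeR quasi-likelihood test, adjusted p = 0.0132, n = 2 lines, lower in 2 of 2). Within the lines it was -0.62 in KMS18 (95% counting interval -0.71 to -0.53) and -0.73 in KMS28BM (-0.83 to -0.63). Such intervals, here and below, come from the exact binomial split of the 2 counts and cover counting error only. Of all 14870 genes tested, 5.25% were called lower and 3.57% higher, so 1 of 10 lower and 0 of 10 higher is near that background. The NSD3 call was lost when the cell line was left out of the model (log2 difference -0.67, edgeR adjusted p = 1), a fit that called none of the 14870 genes (215 at an unadjusted p under 0.05). Fits that left out 1 library, made without the line as well, gave NSD3 log2 differences of -0.95 to -0.46. There an arm holds a single line, so the difference between the lines enters and these fits cannot decide whether the call holds. DESeq2 gave NSD3 an adjusted p of 0.000462, within a range of 0.000462 to 1 over 12 alternatives.

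NSD1, an H3K36 methyltransferase of chromosome 5 that is mutated in Sotos syndrome, had the next lowest difference of the 10 genes. In KMS18 it had 3034 expected counts with the knockdown and 3702 in the control, and in KMS28BM 3612 and 4339 (knockdown, control). Per length, NSD1 measured 10.30 FPKM with the knockdown and 10.97 FPKM in the control of KMS18, and 11.42 and 13.20 FPKM in the same order in KMS28BM. The groups overlapped across lines, since the KMS28BM knockdown value lay above the KMS18 control. The log2 difference in CPM was -0.35 in KMS18 (interval -0.42 to -0.28) and -0.33 in KMS28BM (-0.39 to -0.26). Over both lines it was -0.34 (SE 0.09, edgeR adjusted p = 0.07) and did not pass. On log2(FPKM + 1) the difference was -0.14 (limma adjusted p = 0.453).

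SETD2, the trimethyl writer (chromosome 3), measured 20.7 FPKM with the knockdown and 22.4 FPKM in the control of KMS18, and 8.52 FPKM with the knockdown and 10.2 FPKM in the control of KMS28BM. The log2 difference between constructs was -0.22 (SE 0.10, edgeR adjusted p = 0.222). The lines stood apart by more than the constructs, as described below. ASH1L, a Trithorax-group writer (chromosome 1), measured 11.7 FPKM with the knockdown and 11.4 FPKM in the control of KMS18, and 12.5 FPKM with the knockdown and 12.6 FPKM in the control of KMS28BM. Its log2 difference was -0.03 (SE 0.09, edgeR adjusted p = 0.894), with intervals of -0.05 to 0.07 in KMS18 and -0.13 to -0.01 in KMS28BM. The 4 writers together summed to 51.0 FPKM in knockdown and 59.6 FPKM in control cells of KMS18, and to 39.6 and 48.6 FPKM in knockdown and control cells of KMS28BM. For NSD2 itself, not one of the 10, the log2 difference was -0.44, lower in 2 of 2 lines (SE 0.11, edgeR adjusted p = 0.0579).

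**Figure D2:**
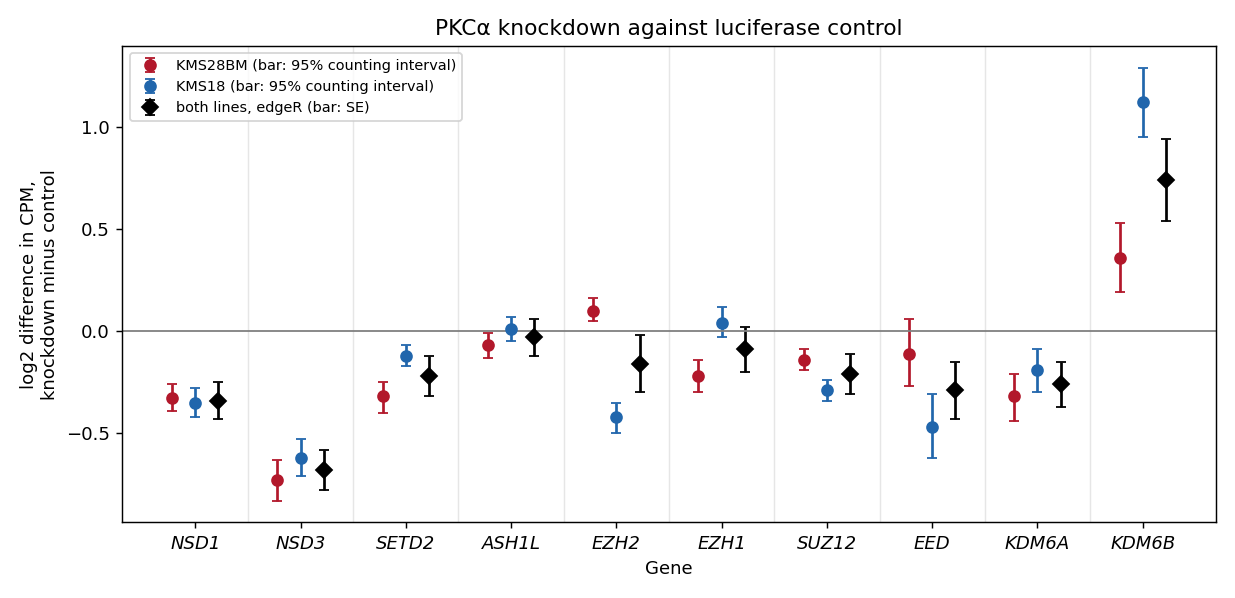
log2 difference in CPM, knockdown minus control, for each of the 10 genes in KMS28BM (red) and KMS18 (blue) with 95% counting intervals, and over both lines (black diamonds, edgeR estimate ± SE). NSD3 lies at -0.68 over both lines, KDM6B is the one gene above 0 in both lines, and EZH2 lies above 0 in KMS28BM (0.10) and below 0 in KMS18 (-0.42).

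NSD1 and NSD3 also share a short sequence in their 3′ untranslated regions (UTRs). An earlier search of these same data, made after genes had been called, found such sequences in the 3′ UTRs of genes that were lower with the knockdown, so what follows is a description and no independent support. The motif AGTCTA was searched on the transcript strand, along with the forms extended by a final A (AGTCTAA), by an initial C (CAGTCTA) and by both (CAGTCTAA), which all contain it, in GENCODE version 29 protein-coding transcripts (GRCh38). CAGTCTAA was held by 417 of 19146 genes (2.18%), and NSD1 and NSD3 were the members among them. AGTCTAA was held by 7.82% of genes, CAGTCTA by 7.64% and AGTCTA by 22.21%. ASH1L and KDM6A held AGTCTA and KDM6A also CAGTCTA, whereas SETD2, EZH2, EZH1, SUZ12, EED and KDM6B held none of these forms. In KDM6A the matches lay only in ENST00000621147 (224 residues) and ENST00000543216 (1269 residues). Its other transcripts, such as ENST00000377967 (1401 residues), held no match. In ASH1L the match lay only in ENST00000368346 (2969 residues), and ENST00000392403 (2964 residues) had none. Windows around the matches are shown for NSD1, KDM6A and ASH1L, with NSD2 and the knockdown target PRKCA, so that the letters can be compared; capitals mark the match.
NSD1, chr5:177298475-177298504, plus strand: tggagccaaccCAGTCTAAtagcaaaatag
NSD1, chr5:177297758-177297786, plus strand: caacttgacagCAGTCTAgatgtctcaca
KDM6A, chrX:45059044-45059072, plus strand: tatcttacaggCAGTCTAttgataaatca
KDM6A, chrX:45110217-45110244, plus strand: gacctgatgcaAGTCTAtgaccaattta
ASH1L, chr1:155335284-155335311, minus strand: caatccttgaaAGTCTAgtattaaatgg
NSD2, chr4:1979960-1979987, plus strand: aagagagacggAGTCTAgctctcctgcc
PRKCA, chr17:66810314-66810342, plus strand: ttactattttgAGTCTAAaggttttctaa
NSD3 held 4 matches, whose windows are not printed here. CAGTCTAA lay at base 756 of the 1539-base 3′ UTR of ENST00000316985, which codes for the short protein of 645 residues. AGTCTAA lay at bases 337 and 432, and AGTCTA at base 1461, of the 5944-base 3′ UTR of ENST00000317025, which codes for 1437 residues. No match lay in NSD3 transcripts ENST00000527502 (1426 residues, 3′ UTR of 98 bases) and ENST00000528627 (77 residues). For NSD2, ENST00000382891 held AGTCTA, while others such as ENST00000508803, which also codes for 1365 residues, held no match. In NSD1, both matches lay in the 3′ UTR of 4751 bases of ENST00000354179, which codes for 2427 residues. ENST00000439151, which codes for 2696 residues, held CAGTCTA and CAGTCTAA as well, in a 3′ UTR of 4756 bases. ENST00000347982 also codes for 2427 residues, but its 3′ UTR has 303 bases and no match.

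Over all genes tested with an annotated 3′ UTR, 87 of 333 with CAGTCTAA were called lower (26.1%) and 5 higher, with a median log2 difference of -0.25. Of the 12589 genes without CAGTCTAA, 670 (5.32%) were called lower, and the median was 0.02. These shares use the same calls on which the motif was found.

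The tables list 1 length per gene and library, and for NSD1 and NSD3 it differed in opposite directions. The NSD3 length was 5411 bases in knockdown and 4518 bases in control cells of KMS18, and 4750 bases in knockdown and 4302 bases in control cells of KMS28BM. It was thus longer with the knockdown by 893 and 448 bases, which makes the NSD3 difference larger per length (log2 FPKM ratio -0.83 in KMS18 and -0.80 in KMS28BM) than in counts. The NSD1 length was 7772 against 8899 bases in KMS18 and 8104 against 8344 bases in KMS28BM, knockdown against control, with differences of -1127 and -240 bases. Listed lengths of NSD2 were longer with the knockdown, by 467 bases in KMS18 and 416 bases in KMS28BM. SETD2 and ASH1L were also longer in both lines (by 38 to 271 bases) and EED shorter (differences of -46 and -61 bases). The other 5 members went opposite ways in the 2 lines or differed by less than 1 base in one. Of 13449 genes with a length in all libraries, 27.0% were longer and 19.1% shorter with the knockdown in both lines, and the lengths carry no replicate error. No source used here says how the authors made this length, and transcript-level counts were not used here.

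**Figure D3:**
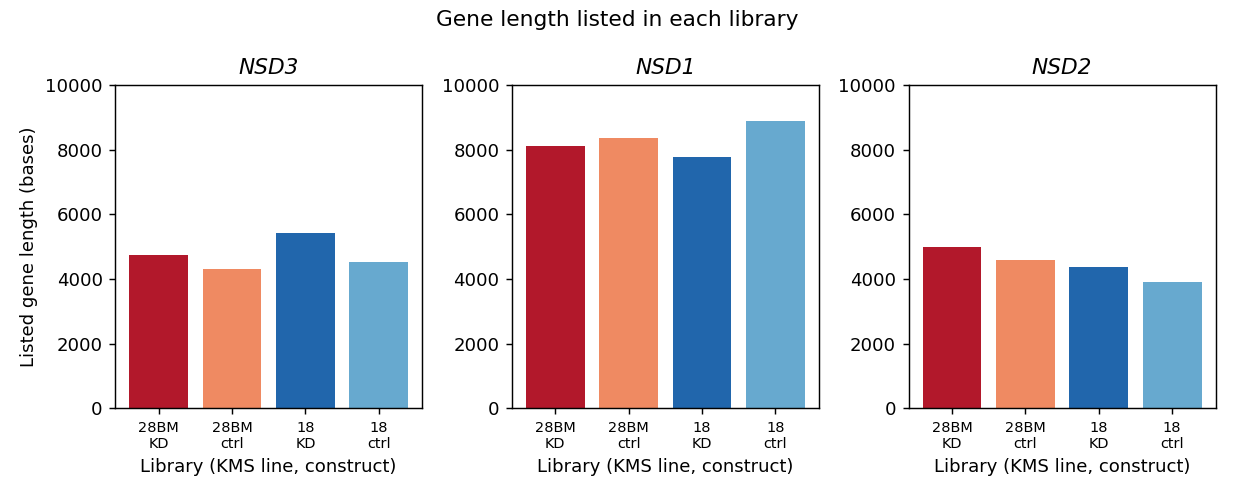
Gene length in bases as listed in each library for NSD3, NSD1 and NSD2 (bars; red shades KMS28BM, blue shades KMS18; KD knockdown, ctrl control). NSD3 and NSD2 are longer in each knockdown library than in its control, and NSD1 is shorter, most in KMS18 (7772 against 8899 bases).

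No PRC2 subunit passed the test. EZH2, the main PRC2 enzyme of dividing cells (chromosome 7), was at 25.8 FPKM in knockdown and 33.5 FPKM in control cells of KMS18, and at 59.1 FPKM in knockdown and 51.9 FPKM in control cells of KMS28BM. The knockdown library was the lower one in KMS18 and the higher one in KMS28BM. In CPM the log2 difference was -0.42 in KMS18 (interval -0.50 to -0.35) and 0.10 in KMS28BM (0.05 to 0.16), and -0.16 over both lines (SE 0.14, edgeR adjusted p = 0.525). The difference between the lines in this response has no residual degree of freedom and was not tested. Genes of proliferation and E2F targets, a group to which EZH2 is known to belong, had a median log2 difference of -0.47 in KMS18 and -0.13 in KMS28BM. Its part in the EZH2 values was not tested.

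EZH1, the paralog that prevails in resting cells (chromosome 17), measured 18.71 FPKM with the knockdown and 19.01 FPKM in the control of KMS18, and 17.63 FPKM with the knockdown and 17.15 FPKM in the control of KMS28BM. Its log2 difference was -0.09 (SE 0.11, edgeR adjusted p = 0.664), and 0.01 on log2(FPKM + 1). EZH2 therefore made up 57.96% of the summed EZH1 and EZH2 level in knockdown and 63.8% in control cells of KMS18, and 77.0% and 75.2% in knockdown and control cells of KMS28BM. SUZ12, the scaffold subunit (chromosome 17), measured 36.9 FPKM with the knockdown and 43.4 FPKM in the control of KMS18, and 42.8 FPKM with the knockdown and 44.7 FPKM in the control of KMS28BM. It was lower with the knockdown in each line, by a log2 difference over both of -0.21 (SE 0.10; edgeR adjusted p = 0.217). EED, which binds trimethylated H3K27 and activates the enzyme (chromosome 11), measured 8.23 FPKM with the knockdown and 10.7 FPKM in the control of KMS18, and 7.91 FPKM with the knockdown and 7.85 FPKM in the control of KMS28BM. In CPM its difference was -0.47 in KMS18 (interval -0.62 to -0.31) and -0.11 in KMS28BM, where the interval of -0.27 to 0.06 included 0. Over both lines EED had -0.29 (SE 0.14, edgeR adjusted p = 0.251).

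The 2 erasers had differences of opposite sign, and neither passed. KDM6B, on chromosome 17, was at 3.71 FPKM in knockdown and 1.70 FPKM in control cells of KMS18, and at 2.61 FPKM in knockdown and 1.89 FPKM in control cells of KMS28BM. Both knockdown values lay above both control values, by more in KMS18 (218.2% of control) than in KMS28BM (138.1%). Expected counts for the knockdown and control libraries came to 922 and 407 in KMS18, and to 659 and 492 in KMS28BM. The log2 difference in CPM was 1.12 in KMS18 (interval 0.95 to 1.29) and 0.36 in KMS28BM (0.19 to 0.53). Over both lines it was 0.74 (SE 0.20, edgeR adjusted p = 0.064) and missed the threshold. KDM6A, on the X chromosome, measured 9.21 FPKM with the knockdown and 10.1 FPKM in the control of KMS18, and 6.51 FPKM with the knockdown and 8.49 FPKM in the control of KMS28BM. Its log2 difference was -0.26 (SE 0.11, edgeR adjusted p = 0.184), lower in 2 of 2 lines. KDM6B made up 28.7% of the summed KDM6A and KDM6B level in knockdown and 14.5% in control cells of KMS18, and 28.6% and 18.2% in knockdown and control cells of KMS28BM.

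Across the 10 genes, 6 were lower with the knockdown in CPM in both lines (NSD1, NSD3, SETD2, SUZ12, EED and KDM6A), against 34.0% of all genes tested. KDM6B was higher in both (35.4% of all genes), and ASH1L, EZH2 and EZH1 went opposite ways (30.6%). The median log2 difference of the 10 was -0.22, against 0.02 for all genes. At an unadjusted p under 0.05 stood NSD1, NSD3, KDM6A and KDM6B, or 4 of 10, where 26.4% of all genes did.

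Between the lines, SETD2 and EZH2 differed most. SETD2 was lower in KMS28BM, at 8.52 and 10.2 FPKM (knockdown, control), than in KMS18, at 20.7 and 22.4 FPKM. Its log2 difference in CPM, KMS28BM minus KMS18, was -1.35 (SE 0.10, edgeR adjusted p = 0.000046), with -1.46 between the knockdown libraries and -1.25 between the controls. EZH2 was higher in KMS28BM (0.82, SE 0.14, edgeR adjusted p = 0.00185), by 1.09 between the knockdown libraries and 0.56 between the controls. In both genes the values of the 2 lines did not overlap.

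NSD3 (-0.44, SE 0.10, edgeR adjusted p = 0.00742), EZH1 (-0.38, SE 0.11, adjusted p = 0.0179) and KDM6A (-0.39, SE 0.11, adjusted p = 0.0162) were also lower in KMS28BM. These 3 calls depend on the processing. With limma on log2(FPKM + 1) NSD3 had -0.21 (adjusted p = 0.13) and EZH1 -0.11 (adjusted p = 0.372), and with DESeq2 KDM6A had -0.37 (adjusted p = 0.0696). EED had -0.34 (edgeR adjusted p = 0.0752), and NSD1, ASH1L, SUZ12 and KDM6B had adjusted p-values of 0.296 to 0.95. In all, 4 of 10 genes were called lower and 1 higher, where 32.3% and 30.6% of all genes were. Each line is a single cell line with other genetic differences, so line and any one feature of it cannot be told apart.

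**Figure D4:**
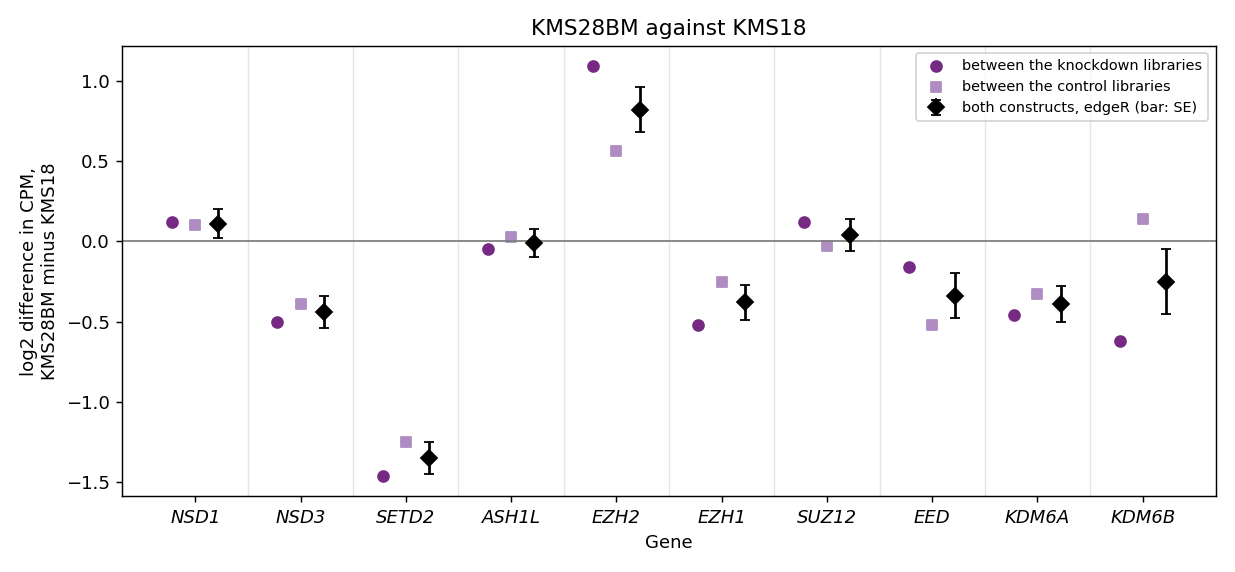
log2 difference in CPM, KMS28BM minus KMS18, for each of the 10 genes: between the knockdown libraries (circles), between the control libraries (squares) and over both constructs (black diamonds, edgeR estimate ± SE). SETD2 lies lowest at -1.35 and EZH2 highest at 0.82.

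Partners of these enzymes moved in places. Among 9 tested PRC2 subunits besides the members, 0 rose and 0 fell, and the median log2 difference was -0.16. Of 18 genes of PRC1, the Polycomb complex that ubiquitinates histone H2A, 3 fell and 1 rose. RYBP, a subunit of variant PRC1, fell (log2 difference -0.80, SE 0.11; edgeR adjusted p = 0.0121). PHC3, a Polyhomeotic scaffold, fell by 0.73 in CPM (SE 0.09). Per length it was at 12.98 FPKM in knockdown and 28.47 FPKM in control cells of KMS18, and at 12.67 FPKM in knockdown and 23.98 FPKM in control cells of KMS28BM. The listed PHC3 length was longer with the knockdown, by 1424 bases in KMS18 and 838 bases in KMS28BM. PCGF5, a variant PRC1 subunit, fell by 0.50 in CPM (SE 0.11). Per length it was at 8.92 FPKM in knockdown and 10.95 FPKM in control cells of KMS18, and at 24.05 FPKM in knockdown and 25.06 FPKM in control cells of KMS28BM. The listed PCGF5 length was shorter with the knockdown in both lines (length differences of -426 bases in KMS18 and -398 bases in KMS28BM). CBX6, a chromobox reader of trimethylated H3K27, rose by 0.89 (SE 0.09, edgeR adjusted p = 0.0056), with 28.5 against 15.7 FPKM in KMS18 and 22.8 against 12.1 FPKM in KMS28BM. The median of the PRC1 genes was -0.04.

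Of the 9 genes of the KMT2C and KMT2D complexes around KDM6A, NCOA6 fell by 0.67 (SE 0.09, edgeR adjusted p = 0.011) and WDR5, which also serves the other COMPASS complexes, fell by 0.49 (SE 0.09, adjusted p = 0.0266), while 0 rose (median -0.13). NCOA6 was at 14.4 against 22.5 FPKM in KMS18 and at 13.1 against 19.6 FPKM in KMS28BM, knockdown against control. Of 12 readers of H3K36 methylation and SETD2 partners, PSIP1 alone fell (-0.58, SE 0.13, edgeR adjusted p = 0.0382, list median -0.07). PSIP1 encodes LEDGF, whose PWWP domain binds methylated H3K36. It was at 29.5 against 47.2 FPKM in KMS18 and at 49.8 against 58.4 FPKM in KMS28BM. None of the 7 H3K36 erasers (median 0.11) and none of the 3 tested writers NSD2, SETMAR and SMYD2 (median -0.26) passed.

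Of 17 other histone lysine writers 0 rose and 0 fell (median 0.01). Of 11 other histone lysine erasers KDM3A, an H3K9 demethylase, fell by 0.73 (SE 0.11, edgeR adjusted p = 0.0131). PHF8, an eraser on H3K9 and H4K20, fell by 0.49 (SE 0.11, edgeR adjusted p = 0.0474), and 0 of the 11 rose. Of 10 HOXA genes, classical Polycomb targets, 7 were listed under their symbols in the deposited data and the rest were not. Their highest value was 1.59 FPKM (HOXA6 in KMS28BM control cells), and 0 of the 4 tested passed, with a median log2 difference of 0.41 (0.95 in KMS18 and 0.04 in KMS28BM). Of 22 proliferation genes 4 fell (CCNE2, CDC6, CDK1 and MCM3, with log2 differences of -0.92 to -0.53) and 0 rose, with a median of -0.30. For every list the share called can be read against the 5.25% lower and 3.57% higher calls of all genes.

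**Figure D5:**
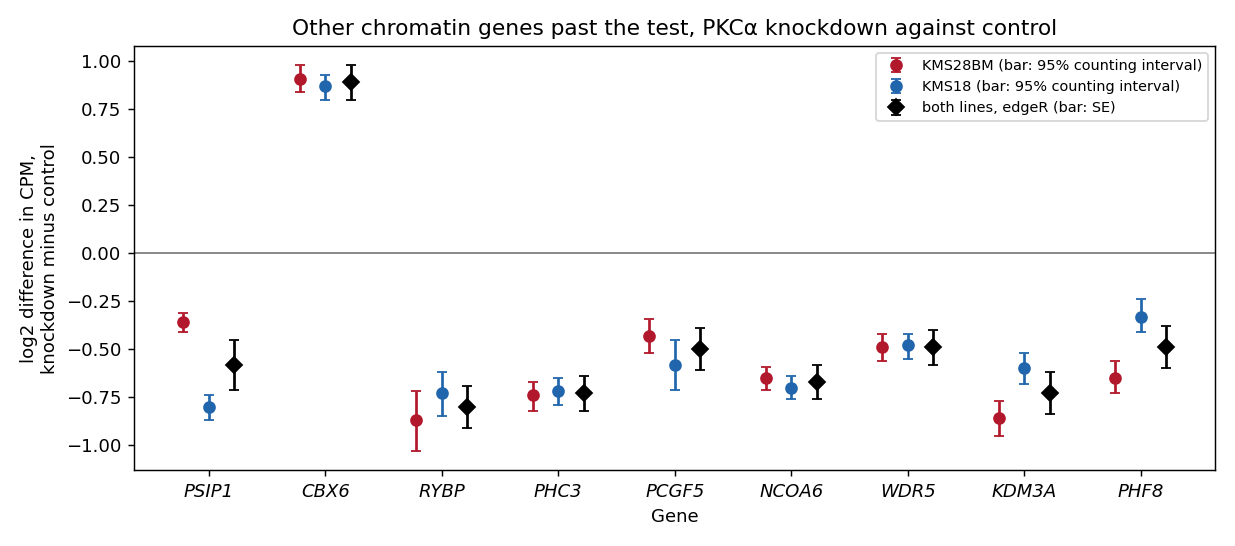
log2 difference in CPM, knockdown minus control, for the 9 genes of the partner, writer and eraser lists that passed the test, in KMS28BM (red) and KMS18 (blue) with 95% counting intervals, and over both lines (black diamonds, edgeR estimate ± SE). CBX6 lies at 0.89, and the other 8 lie at -0.80 to -0.49.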

How the data were processed

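RNA from 1 library per line and construct was measured. Per the labels' protocols, libraries were made from 100 ng total RNA with a TruSeq RNA version 2 kit, which does not keep strand, so reads of genes that overlap on opposite strands cannot be told apart. The authors deposited expected counts, FPKM values and a gene length in bases for each gene, per the file headers. Tools named in the submitters' processing notes are HISAT, Bowtie2 and STAR, and builds hg19 and GRCh37, all with no role. The program that counted the reads is not given here. Positions come from GENCODE version 29 (GRCh38) by gene identifier, with none converted.

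Rows with the same symbol were added up. Expected counts rounded to whole numbers were tested with edgeR 4.0.16 (R 4.3.3; quasi-likelihood, TMM, default filter at a minimum count of 10, line and construct in the model, Benjamini-Hochberg at 0.05) over 14870 genes, with 1 residual degree of freedom moderated by a prior of 5.85. The line is a block because each line gave both libraries. Each SE is the absolute log2 difference divided by the square root of the F statistic of that edgeR test. Within a line there is no test. Alternatives used DESeq2 1.42.0 and limma 3.58.1 (pseudocounts 1 and 0.1, genes at 1 FPKM or more in a library). Cultures are not stated to be independent, so p-values may hold technical spread. The 10 genes, the lists and the tests were chosen with earlier results of these data known. Named were the 10 genes, NSD2, PRKCA and up to 6 called genes per list and direction; SETMAR, SMYD2 and HOXA6, which were not called, were named after their values were seen. Some genes of the lists are not reported here.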

Additional observations from a re-analysis of the deposited data

Results flagged for a closer look

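EZH2 differed in opposite directions in the 2 lines, with counting intervals that leave out 0: it was lower with the knockdown in KMS18 (log2 difference -0.42) and higher in KMS28BM (0.10). The KMS28BM difference exceeded the KMS18 difference by 0.53 on the log2 scale. This difference between the lines was not tested, because 1 library per line and construct leaves no spread to set it against.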

How the results depend on the processing

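Over all genes, 531 rose and 781 fell. These counts were 124 and 243 with no filter on low counts, 138 and 281 with identifiers kept apart, and 0 and 0 with no replicate block, where the lines are not paired and 0 members fell. The number lower was 487 with limma on log2(FPKM + 1), where 47.3% of calls were lower against 59.5%. Leaving out each library in turn, also without the block, gave 0 calls higher and 0 lower, and 0 members lower. Under these fits NSD3 ranged from -0.95 to -0.46, SETD2 from -1.09 to 0.58, EZH2 from -0.74 to 0.35 and EZH1 from -0.36 to 0.15. EZH2 was 0.35 without the KMS18 knockdown library and 0.21 without the KMS28BM control. SETD2 was 0.58 without the KMS18 control and 0.36 without the KMS28BM knockdown, and EZH1 was 0.06 and 0.15 in the same fits. The 1 remaining library of an arm is assumed there to vary like the others. That arm holds a single line, so the difference between the lines enters the difference between constructs. KMS28BM minus KMS18 was -1.35 for SETD2 and 0.82 for EZH2. Within the lines, the SETD2 knockdown difference was -0.12 in KMS18 and -0.32 in KMS28BM. The ranges and signs of these fits are therefore no check of the differences within lines. ASH1L and EZH1 were at 0.01 with limma under both pseudocounts. NSD3 was called in 7 of 12 alternatives, all those that kept the block. With either line left out, NSD3 kept its sign (-0.73 and -0.62).

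For KMS28BM against KMS18, 2 members were called lower with limma under both pseudocounts, against 4. ASH1L was 0.12 with limma, and 0.01 with DESeq2 and with median of ratios scaling. The causes were not tested. Each line and construct has a single library, so no value has a replicate check within a line, and the counting intervals show only what depth limits.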
